A study of Mus musculus with 12 samples.

Results

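The genes described here are 44 genes of the cell cycle and of DNA replication. They were chosen by name for their textbook roles, with earlier results of these data known. All 44 were found among the 57073 gene models of the deposited table. Each name had 1 row. They were measured by RNA sequencing in retinas of C57BL/6 mice at postnatal day 17, in 6 libraries of mice with oxygen-induced retinopathy (OIR), labelled 75% oxygen, and 6 libraries of mice kept in normoxic air. In the OIR model, high oxygen prunes the capillaries of the pup's retina, and back in room air the poorly perfused tissue becomes hypoxic and grows abnormal vessels. The labels give neither the hours of oxygen nor the number of animals behind a library, so the p-values measure the spread between libraries, which may be partly technical. Total counts ranged from 17366045 to 21594618 in OIR and from 17361979 to 19390627 in normoxic libraries.

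In the G1 phase of a dividing cell, D-type cyclins with their kinases Cdk4 and Cdk6 inactivate the retinoblastoma protein and release E2F transcription factors. E2F factors then switch on the genes that license replication origins, build the replication fork and supply nucleotides for S phase. Before mitosis, a later wave of genes with CHR elements in their promoters (cell cycle genes homology region) supplies cyclin B, the kinases and motors of the spindle and the ubiquitin ligase parts that end mitosis. Neurons and photoreceptors of the mouse retina have left the cycle by this age, while endothelial cells, pericytes, microglia and astrocytes can still divide.

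Most of the 44 genes were higher in OIR retinas. With edgeR's quasi-likelihood test and an adjusted p of 0.05 as threshold, 32 rose, 2 fell and 10 did not pass. Over all 18275 genes tested, 31.0% passed, namely 16.2% of those tested as higher and 14.8% as lower in OIR. At least 2-fold higher were 19 of the 44, against 4.90% of all genes. In 23 of the 44, the lowest OIR library exceeded the highest normoxic library, against 9.47% of all genes. The median log2 fold change (OIR over normoxic) was 0.69 over the 44 and -0.01 over all genes tested. Since the 44 were chosen with earlier results known, their shares beside those of all genes are a description. All 44 passed the filter on low counts, but Rrm2 and Aurkb did so through the OIR libraries alone, since every normoxic library was below the filter's 0.548 CPM (the count scaled to a common library depth); such a gene could enter the test only by being higher in OIR. A further 8 had between 1 and 5 normoxic libraries over that level, while the filter asks for 6 libraries. Of these, Ccnb1 had 1 such library, and Mki67, Top2a and Bub1 had 2 each. At their normoxic level in both groups they would probably not have been tested, so their p-values carry a like limit. In bulk retina, more dividing cells and more of these transcripts per cell cannot be told apart.

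**Figure D1:**
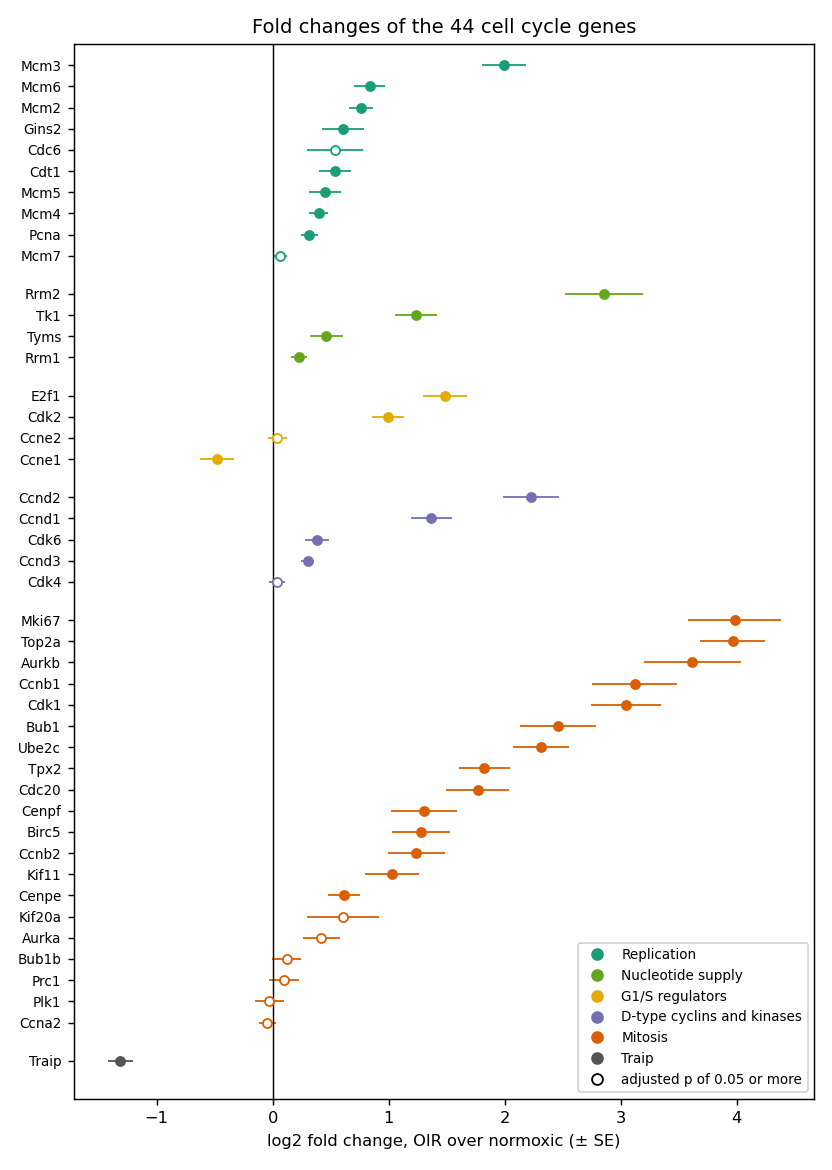
Log2 fold change, OIR over normoxic, with its SE for each of the 44 genes, grouped by role; open circles had an adjusted p of 0.05 or more. Mitosis genes spread from -0.04 to 3.98, replication genes from 0.06 to 1.99, and Traip stands alone at -1.31.

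Of the 20 genes of mitosis, 14 rose, none fell and 6 did not pass, with a median log2 fold change of 1.29. Mki67, which encodes the Ki-67 protein that coats mitotic chromosomes and is the usual stain for dividing cells (chromosome 7, 135291513 to 135318090 in GRCm39), had 2.21, 5.74 and 6.36 CPM as lowest, median and highest value in OIR, against 0.0536, 0.243 and 0.778 CPM in normoxic libraries. The groups did not overlap, and the lowest OIR value was that of replicate 6, with the other 5 at 5.46 CPM or more. Mki67 rose 15.8-fold (log2 fold change 3.98 ± 0.40 SE, edgeR adjusted p = 5.01e-07). In counts this was 586 over the OIR libraries and 36 over the normoxic ones, of which 25 came from replicates 5 and 6.

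Top2a, the topoisomerase that untangles sister chromosomes (chromosome 11, 98883769 to 98915015), had 5.27, 7.43 and 8.77 CPM in OIR, against 0.0542, 0.415 and 0.817 CPM in normoxic libraries. No library of either group came near the other, and the rise was 15.6-fold (3.97 ± 0.28, edgeR adjusted p = 6.52e-09). Cdk1, the kinase that drives entry into mitosis (chromosome 10, 69170976 to 69188768), had 4.88, 6.52 and 9.28 CPM in OIR, against 0.286, 0.634 and 2.00 CPM in normoxic libraries. Normoxic replicate 5 held the 2.00 CPM, and the next normoxic value was 0.763 CPM. Cdk1 rose 8.27-fold (3.05 ± 0.30, edgeR adjusted p = 4.16e-07).

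The other mitosis genes that rose did so by 1.53-fold to 12.3-fold. They were the chromosomal passenger kinase gene Aurkb (12.3-fold, 218 counts in OIR against 17 in normoxic libraries) and its partner survivin, encoded by Birc5 (2.43-fold), and the B-type cyclins Ccnb1 (8.70-fold) and Ccnb2 (2.36-fold), which activate Cdk1. Ube2c and Cdc20, which serve the anaphase-promoting complex in ending mitosis, rose 4.98-fold and 3.40-fold. Bub1, a kinase of the spindle checkpoint, rose 5.51-fold, the spindle assembly factor gene Tpx2 3.54-fold, the centromere protein gene Cenpf 2.47-fold, the spindle motor gene Kif11 2.04-fold and the kinetochore motor gene Cenpe 1.53-fold. In Kif11 and Cenpe the groups overlapped, and in the other 12 that rose they did not. The folds of Aurkb, Ccnb1, Mki67, Bub1 and Top2a rest on few normoxic counts (17, 31, 36, 41 and 52 over the 6 libraries). For Aurkb, every normoxic library was below the filter's level, so it could enter the test only by being higher in OIR.

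Ccna2, cyclin A2 (chromosome 3, 36619014 to 36626299), which acts in S phase and G2, had 22.7, 27.9 and 31.0 CPM in OIR, against 24.3, 29.5 and 30.6 CPM in normoxic libraries. The groups overlapped over nearly their whole range, with a log2 fold change of -0.04 ± 0.08 (edgeR adjusted p = 0.703). Its gene model overlaps that of Exosc9 on the opposite strand by 863 bases, and the strand setting of the counting is not given. The mitotic kinase gene Plk1 (-0.03 ± 0.13), the checkpoint gene Bub1b (0.12 ± 0.13) and the midzone gene Prc1 (0.10 ± 0.13) did not pass either. Nor did the cytokinesis motor gene Kif20a (0.61 ± 0.31, adjusted p = 0.152). The kinase gene Aurka lay at the threshold (0.42 ± 0.16, adjusted p = 0.0537), and passed with the sets of replicates 1 to 3 and 4 to 6 as a block (0.0453), under DESeq2 (0.0415), with the FPKM filter (0.048) and in 4 of the 12 fits without 1 library (0.0332 to 0.0461: without OIR replicate 1 or 3, or normoxic replicate 1 or 5).

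Levels set the mitosis genes apart in another way. FPKM, a level per length of transcript, can be compared between genes. Mki67 averaged 0.522 ± 0.155 FPKM in OIR and 0.0327 ± 0.0296 FPKM in normoxic libraries (SD, n = 6 each), and Top2a 0.823 ± 0.147 and 0.0520 ± 0.0302 FPKM. Ccna2 averaged 6.74 ± 0.751 FPKM in OIR and 7.001 ± 0.593 FPKM in normoxic libraries, Bub1b 5.98 ± 1.20 and 5.54 ± 0.865 FPKM, and Plk1 2.84 ± 0.396 and 2.92 ± 0.389 FPKM. In normoxic retinas, then, transcripts of Ccna2, Bub1b, Plk1 and Aurka (1.37 ± 0.184 FPKM) were counted at levels above those of the other 16 mitosis genes, and these 4 are among the 6 that did not pass. The order of normoxic levels shares its libraries with the fold changes and is given as a description.

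**Figure D2:**
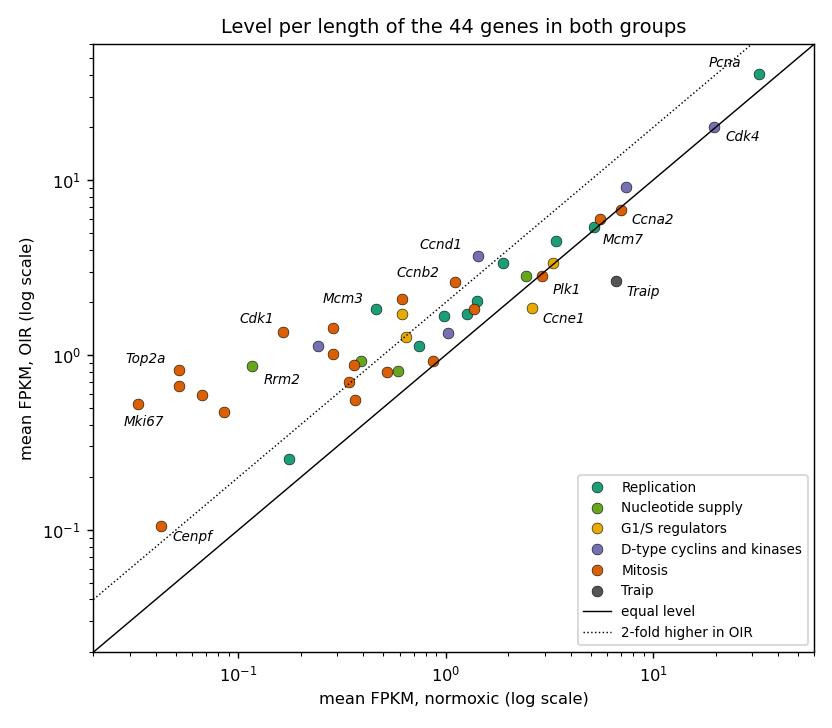
Mean FPKM of each gene in OIR (vertical, log scale) against normoxic libraries (horizontal, log scale), with lines at equal level and at 2-fold higher in OIR. Genes with low normoxic levels such as Mki67 (0.0327 FPKM) lie far above the line of equal level, Ccna2 and Cdk4 lie on it, and Traip and Ccne1 lie under it.

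The promoters of these genes show the sequence elements that the mitotic wave is known for. RefSeq promoters (build GRCm38.p6, 250 bases before to 50 after the start) were found for 16 of the 20 mitosis genes. The CHR letters TTTGAA, on either strand, were in 12 of the 16 (75.0%), against 20.2% of the promoters of 27025 genes, and the letters CCAAT (Y box, where NF-Y binds) in 15 (93.8%), against 41.1%. Both elements were present in Mki67, Top2a and Cdk1, which rose the most or with the smallest p, and likewise in Plk1, which did not pass. In each sequence below, capitals mark CHR letters, CCAAT or an E2F match, on either strand.

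Mki67, chr7:135716330-135716629, minus strand: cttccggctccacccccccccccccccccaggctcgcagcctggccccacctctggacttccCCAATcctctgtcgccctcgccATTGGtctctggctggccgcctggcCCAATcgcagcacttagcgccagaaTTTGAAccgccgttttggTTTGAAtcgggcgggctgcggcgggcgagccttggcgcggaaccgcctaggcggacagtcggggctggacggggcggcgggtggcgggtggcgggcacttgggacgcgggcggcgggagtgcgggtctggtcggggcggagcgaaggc

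Top2a, chr11:99024140-99024439, minus strand: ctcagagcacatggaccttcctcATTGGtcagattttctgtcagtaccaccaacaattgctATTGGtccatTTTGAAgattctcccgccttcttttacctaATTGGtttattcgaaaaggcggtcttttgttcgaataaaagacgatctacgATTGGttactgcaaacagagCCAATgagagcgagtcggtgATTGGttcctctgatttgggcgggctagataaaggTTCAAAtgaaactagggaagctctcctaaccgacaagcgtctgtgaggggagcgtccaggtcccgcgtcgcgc

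Cdk1, chr10:69352863-69353162, minus strand: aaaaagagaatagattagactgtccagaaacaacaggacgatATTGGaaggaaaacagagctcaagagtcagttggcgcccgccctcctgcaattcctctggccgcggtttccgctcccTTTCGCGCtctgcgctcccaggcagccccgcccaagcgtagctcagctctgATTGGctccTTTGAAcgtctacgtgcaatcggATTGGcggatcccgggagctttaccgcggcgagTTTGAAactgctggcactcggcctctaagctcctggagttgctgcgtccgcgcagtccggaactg

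Plk1, chr7:122159185-122159484, plus strand: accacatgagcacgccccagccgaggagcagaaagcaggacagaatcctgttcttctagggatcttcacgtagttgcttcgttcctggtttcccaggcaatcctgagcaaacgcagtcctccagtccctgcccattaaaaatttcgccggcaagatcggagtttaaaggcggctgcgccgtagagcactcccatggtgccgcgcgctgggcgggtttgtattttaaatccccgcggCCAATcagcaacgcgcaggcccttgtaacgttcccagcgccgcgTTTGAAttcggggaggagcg

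The Mki67 window holds TTTGAA 116 and 98 bases before the start, and that of Cdk1 holds it 71 and 15 bases before. In Plk1 it lies 31 bases after the start. All 4 mitosis genes with a promoter that did not pass the test (Aurka, Bub1b, Plk1 and Prc1) held the CHR letters, as did 8 of the 12 that rose. A match is a description of letters and not a tested site.

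Of the 10 replication genes and the 4 genes of nucleotide supply, 12 rose, none fell and 2 did not pass, with a median log2 fold change of 0.54. Mcm3, a subunit of the hexamer that licenses origins and unwinds DNA (chromosome 1, 20873192 to 20890536), had 6.12, 6.94 and 8.01 CPM in OIR, against 1.23, 1.46 and 2.71 CPM in normoxic libraries. The groups were well apart, and Mcm3 rose 3.98-fold (1.99 ± 0.19, edgeR adjusted p = 2.47e-07). Of the other 5 subunits of the hexamer, 4 rose and Mcm7 did not pass. Mcm6 had 13.2, 14.9 and 22.6 CPM in OIR, against 6.60, 9.18 and 9.57 CPM in normoxic libraries, with the 22.6 CPM in OIR replicate 5. It rose 1.79-fold (0.84 ± 0.13, edgeR adjusted p = 8.55e-05). Mcm2 had 9.93, 11.8 and 13.3 CPM in OIR, against 5.77, 6.96 and 7.67 CPM in normoxic libraries, a rise of 1.70-fold without overlap (edgeR adjusted p = 2.13e-05).

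Mcm5 rose 1.37-fold (edgeR adjusted p = 0.0201), and Mcm4 by 1.32-fold (0.00162). Without OIR replicate 3 or OIR replicate 5, Mcm5 no longer passed (adjusted p = 0.0518 and 0.0526). Mcm7 had 22.8, 23.7 and 25.3 CPM in OIR, against 21.3, 22.8 and 24.8 CPM in normoxic libraries. These ranges overlapped, and the log2 fold change was 0.06 ± 0.06 (edgeR adjusted p = 0.476). Per length of transcript, the 6 subunit genes ranged in normoxic retinas from 0.463 ± 0.166 FPKM for Mcm3 to 5.18 ± 0.257 FPKM for Mcm7. In OIR these 2 stood at 1.84 ± 0.193 and 5.37 ± 0.220 FPKM. The Mcm7 model overlaps Ap4m1 by 421 bases and Cops6 by 64 bases, both on the opposite strand.

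Around the hexamer, Cdt1, which loads it onto origins, rose 1.45-fold and Gins2, a subunit of the active helicase, 1.52-fold. Cdc6, the other loading factor, had a similar estimate (0.54 ± 0.24) at a lower level of 0.255 ± 0.0532 FPKM in OIR and 0.175 ± 0.0443 FPKM in normoxic libraries, and did not pass (adjusted p = 0.102). Pcna, the sliding clamp of the polymerases, was the most abundant of the 44 genes per length, at 40.2 ± 2.83 FPKM in OIR and 32.5 ± 3.94 FPKM in normoxic libraries, and rose (log2 fold change 0.32 ± 0.07, edgeR adjusted p = 0.00313). Its range in OIR began at 90.4 CPM and that of the normoxic libraries ended at 90.4 CPM, in normoxic replicate 5. Processed pseudogenes of Pcna exist, so its count is less certain.

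Among the genes of nucleotide supply, the 2 subunits of ribonucleotide reductase differed. Rrm2, the subunit made in S phase (chromosome 12, 24758240 to 24764145), had 1.68, 2.09 and 3.77 CPM in OIR, against 0.0572, 0.351 and 0.445 CPM in normoxic libraries. It rose 7.25-fold without overlap (2.86 ± 0.34, edgeR adjusted p = 3.45e-06), with 263 counts over the OIR libraries and 36 over the normoxic ones. Every normoxic library was below the filter's level, so Rrm2 could enter the test only by being higher in OIR, which limits its p-value. Rrm1, the larger subunit, had 27.3, 31.9 and 33.0 CPM in OIR, against 24.0, 26.8 and 30.0 CPM in normoxic libraries. Its rise of 1.17-fold passed (0.22 ± 0.07, edgeR adjusted p = 0.0167), with groups that overlapped, and was lost within replicates 1 to 3 and within 4 to 6 (adjusted p = 0.0676 and 0.0717). Tk1, the thymidine kinase of the salvage pathway, had 3.29, 4.74 and 6.15 CPM in OIR, against 1.71, 1.97 and 2.61 CPM in normoxic libraries, a rise of 2.36-fold (1.24 ± 0.18, edgeR adjusted p = 3.88e-05). Tyms, thymidylate synthase, rose 1.38-fold.

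E2F letters (TTTGGCGC, TTTCGCGC, TTTCCCGC or TTTGCCGC, on either strand) were in the promoters of 6 of the 8 replication genes matched to RefSeq (75.0%), in 1 of the 16 mitosis genes, which is Cdk1, and in 2.60% of the promoters of all 27025 genes. The CHR letters were in 1 of these 8, which is Mcm2, and neither element was in the 4 promoters of nucleotide supply. Mcm3 and Mcm5 are shown because both hold 2 such matches and their folds differ.

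Mcm3, chr1:20820263-20820562, minus strand: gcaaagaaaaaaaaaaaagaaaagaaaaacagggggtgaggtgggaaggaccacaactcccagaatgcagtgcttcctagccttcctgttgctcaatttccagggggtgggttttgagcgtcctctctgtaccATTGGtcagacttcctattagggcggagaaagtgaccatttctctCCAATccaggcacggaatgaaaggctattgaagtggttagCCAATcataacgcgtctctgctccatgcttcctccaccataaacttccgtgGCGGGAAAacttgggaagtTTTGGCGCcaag

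Mcm5, chr8:75109259-75109558, plus strand: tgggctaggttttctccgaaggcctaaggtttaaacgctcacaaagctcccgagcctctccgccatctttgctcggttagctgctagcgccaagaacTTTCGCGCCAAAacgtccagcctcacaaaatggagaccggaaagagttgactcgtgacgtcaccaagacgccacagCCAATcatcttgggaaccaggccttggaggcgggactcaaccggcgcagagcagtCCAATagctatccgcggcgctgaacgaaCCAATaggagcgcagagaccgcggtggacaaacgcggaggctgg

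In Mcm3 the E2F letters begin 20 and 39 bases after the start, one on each strand. In Mcm5 they begin 153 and 149 bases before the start and share 4 bases, so that a match on either strand covers part of the other. Beside them stand 3 matches of CCAAT in each window. Mcm7, which did not pass the test, also held E2F letters, as did Mcm6, Cdt1 and Cdc6.

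**Figure D3:**
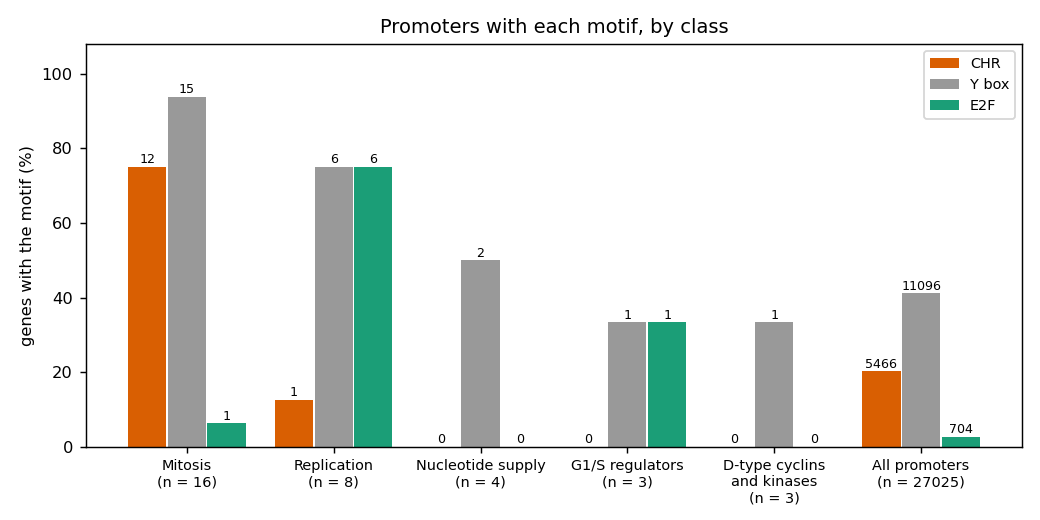
Share of genes (vertical, percent) whose RefSeq promoter holds CHR, Y box or E2F letters, by class of gene and over all promoters, with the number of genes over each bar and the number with a promoter under it. CHR letters were in 12 of 16 mitosis genes and E2F letters in 6 of 8 replication genes.

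Set side by side, mitosis genes had the larger median log2 fold change, 1.29 against 0.54 for replication and nucleotide supply. At least 2-fold higher were 13 of 20 mitosis genes, against 3 of 14 genes of replication and nucleotide supply, namely Mcm3, Rrm2 and Tk1. Counting the 4 regulators of G1/S with the replication genes left their median at 0.54. By library, the median over the mitosis genes of the log2 level relative to the normoxic mean (with 0.1 added to each CPM) was 1.14 to 1.67 in the 6 OIR libraries and -0.07 to 0.24 in the 6 normoxic ones. The same median over replication and nucleotide supply was 0.49 to 0.61 in OIR and -0.20 to 0.16 in normoxic libraries. The classes started from unlike levels, with median FPKM in normoxic libraries of 0.352 for mitosis and 1.12 for replication and nucleotide supply. In OIR these medians were 0.896 and 1.78 FPKM. Fewer than 6 normoxic libraries were over the filter's level in 9 of 20 and 1 of 14 genes. The part of these low levels in the larger folds was not tested. The difference between the classes was not tested either, since the genes were chosen with results known. On log2(FPKM + 1), a scale that understates the change of genes at low levels, the medians were 0.45 for mitosis and 0.31 for replication and nucleotide supply.

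The regulators of the passage from G1 to S split. E2f1, the transcription factor that switches on replication genes (chromosome 2, 154401327 to 154411812), had 4.37, 5.53 and 6.48 CPM in OIR, against 1.29, 2.03 and 2.83 CPM in normoxic libraries. It rose 2.80-fold without overlap (1.49 ± 0.19, edgeR adjusted p = 9.75e-06). Cdk2, the kinase partner of cyclin E, had 6.95, 7.70 and 9.74 CPM in OIR, against 3.14, 3.80 and 5.00 CPM in normoxic libraries, a rise of 1.99-fold (edgeR adjusted p = 2.03e-05). Its model overlaps that of Pmel, a pigment cell gene, by 837 bases on the opposite strand. Pmel itself differed by 0.43 on the log2 scale and did not pass (adjusted p = 0.512).

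The 2 cyclins that bind Cdk2 at this step did not follow it. Ccne1 (chromosome 7, 37797409 to 37806959) had 3.80, 4.72 and 6.79 CPM in OIR, against 5.26, 6.86 and 8.39 CPM in normoxic libraries. The ranges overlapped, since OIR replicate 5 held the 6.79 CPM. Ccne1 fell by 0.48 ± 0.15 on the log2 scale (edgeR adjusted p = 0.0191), a call that was lost within replicates 1 to 3 (log2 fold change -0.30, adjusted p = 0.188). Ccne2 had a log2 fold change of 0.04 ± 0.08 (adjusted p = 0.760), at 3.35 ± 0.259 FPKM in OIR and 3.28 ± 0.255 FPKM in normoxic libraries, and its model overlaps Ints8 by 5622 bases on the opposite strand.

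Of the 3 D-type cyclins and their 2 kinases, 4 rose and Cdk4 did not pass. Ccnd2 (chromosome 6, 127102125 to 127129156) had 7.60, 10.5 and 13.8 CPM in OIR, against 0.921, 2.27 and 3.497 CPM in normoxic libraries, a rise of 4.69-fold (2.23 ± 0.24, edgeR adjusted p = 1.38e-06). Ccnd1 (chromosome 7, 144483668 to 144493662) had 14.4, 16.8 and 21.9 CPM in OIR, against 3.75, 6.85 and 8.88 CPM in normoxic libraries, a rise of 2.58-fold (1.37 ± 0.18, edgeR adjusted p = 1.01e-05). In neither did the groups overlap, and in both the normoxic replicates 1 to 3 lay below the normoxic replicates 4 to 6. Ccnd3, the most abundant D-type cyclin per length (9.11 ± 0.705 FPKM in OIR and 7.43 ± 0.441 FPKM in normoxic libraries), had 71.5, 80.8 and 86.8 CPM in OIR, against 60.7, 65.4 and 70.8 CPM in normoxic libraries. It rose 1.23-fold (edgeR adjusted p = 3.33e-04), also without overlap.

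Cdk4, the more abundant kinase, had 61.1, 65.2 and 69.4 CPM in OIR, against 54.9, 64.3 and 76.1 CPM in normoxic libraries, which enclosed the OIR range (log2 fold change 0.04 ± 0.07, edgeR adjusted p = 0.738). Cdk6 rose 1.30-fold (edgeR adjusted p = 0.0109) from overlapping groups. None of the 3 promoters of this class found in RefSeq (Ccnd3, Cdk4 and Cdk6) held CHR or E2F letters.

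**Figure D4:**
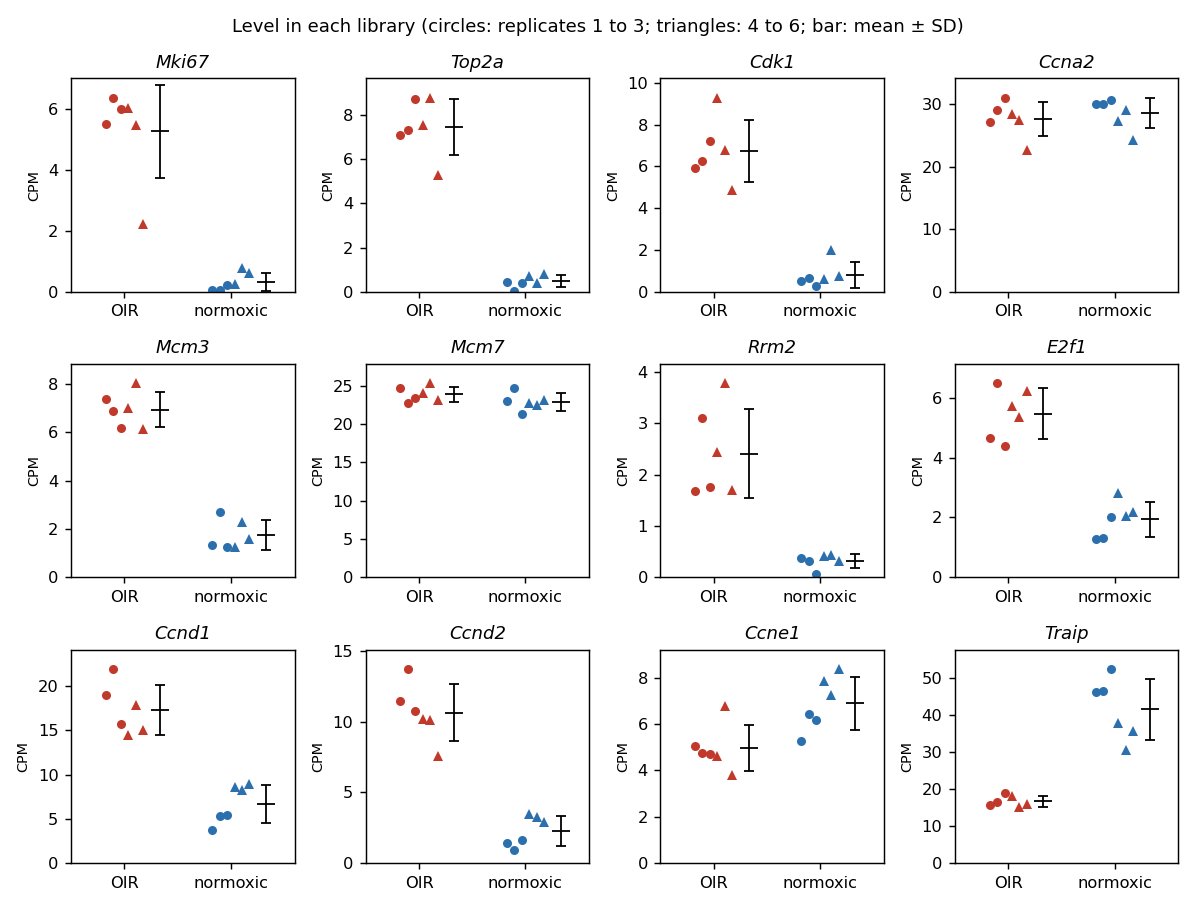
CPM (vertical, from 0) in each of the 6 OIR and 6 normoxic libraries for 12 of the genes, with circles for replicates 1 to 3, triangles for replicates 4 to 6 and a bar for mean ± SD. The groups lie apart in Mki67, Top2a, Cdk1, Mcm3, Rrm2, E2f1, Ccnd1, Ccnd2 and Traip and overlap in Ccna2, Mcm7 and Ccne1.

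Traip went the other way. It encodes a ubiquitin ligase that works at stalled or converging replication forks (chromosome 9, 107827335 to 107849469), and it had 15.04, 16.1 and 18.8 CPM in OIR, against 30.5, 41.9 and 52.4 CPM in normoxic libraries. All OIR libraries lay below all normoxic ones, and Traip fell by 1.31 ± 0.11 on the log2 scale (edgeR adjusted p = 6.95e-08). Per length it stood at 2.64 ± 0.262 FPKM in OIR and 6.61 ± 1.31 FPKM in normoxic libraries, a normoxic level below those of Pcna, Cdk4, Ccnd3 and Ccna2 alone among the 44. Among normoxic libraries, replicates 1 to 3 held 46.1 to 52.4 CPM and replicates 4 to 6 held 30.5 to 37.7 CPM. The promoter is shown because it carries the elements of the mitosis class, with TTTGAA 23 bases after the start and CCAAT 56 bases before it, in a gene that changed in the opposite direction.

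Traip, chr9:107950713-107951012, plus strand: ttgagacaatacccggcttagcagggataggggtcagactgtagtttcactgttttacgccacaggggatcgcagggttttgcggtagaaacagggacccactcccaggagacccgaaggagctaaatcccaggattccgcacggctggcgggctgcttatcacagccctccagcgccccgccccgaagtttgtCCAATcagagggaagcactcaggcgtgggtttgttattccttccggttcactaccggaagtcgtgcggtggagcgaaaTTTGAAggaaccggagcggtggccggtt

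Wider lists of the same pathway, not limited to the 44 genes, were read in the same test. Of 30 further replication genes tested, 5 rose, none fell and 25 did not pass, with a median log2 fold change of 0.10. That share of higher genes is close to the 16.2% of all genes tested. Those that rose were Uhrf1, which keeps DNA methylation through replication (6.14-fold, with 4.50 ± 0.808 CPM in OIR and 0.731 ± 0.235 CPM in normoxic libraries), Chaf1b, a histone loading factor (4.37-fold), and Dtl (4.45-fold), and, named after their values were seen, Clspn (1.84-fold) and Gmnn (1.32-fold). Chaf1b passed the filter through the OIR libraries alone, and Dtl had 1 normoxic library over the filter's level. The polymerase, primase and clamp loader genes of the list did not pass. Fen1, also named later, was not tested, with 3 counts in OIR and 2 in normoxic libraries.

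Of 36 further mitosis genes tested, 21 rose, 2 fell and 13 did not pass, with a median of 0.73. Among all genes tested, 16.2% were higher and 14.8% lower. Among the 21 are 5 (Kif2c, Melk, Pbk, Dlgap5 and Hmmr) with no normoxic library over the filter's level, which could enter the test only by being higher in OIR. Kif2c, a motor that takes microtubules apart, had 163 counts in OIR and 26 in normoxic libraries and rose 6.05-fold (edgeR adjusted p = 2.49e-06, with that limit), and Kif23, a motor of cytokinesis, by 7.21-fold (3.89e-06). Kif23 had 2 normoxic libraries over the filter's level. Spc25, a kinetochore gene, fell by 0.97 ± 0.10 on the log2 scale, with 62.7 ± 9.96 CPM in OIR and 123 ± 15.7 CPM in normoxic libraries (edgeR adjusted p = 7.03e-07). Ndc80 and Knl1, also of the kinetochore and named after their values were seen, were below the filter, with 116 and 107 counts in OIR against 28 and 18 in normoxic libraries, ratios of 4.13 (95% counting interval 2.71 to 6.48) and 5.93 (3.58 to 10.4). These intervals come from summed counts and leave out the spread between libraries. The groups overlapped in Ndc80 and not in Knl1.

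Of 9 tested genes of kinase inhibitors and pocket proteins, 4 rose, none fell and 5 did not pass, where 16.2% of all genes tested were higher and 14.8% lower. Cdkn1a, which encodes the p21 inhibitor induced by p53, rose 3.25-fold, with 23.2 ± 3.54 CPM in OIR and 7.10 ± 2.10 CPM in normoxic libraries (edgeR adjusted p = 4.97e-07). Cdkn2c, encoding the Cdk4 and Cdk6 inhibitor p18, rose 2.09-fold (edgeR adjusted p = 4.21e-05), and Cdkn1b, encoding p27, by 1.24-fold (4.17e-05). Named after their values were seen, Cdkn2b rose 2.44-fold and Cdkn2a was below the filter, with 69 counts in OIR and 9 in normoxic libraries (ratio 7.64, 95% counting interval 3.80 to 17.4). Beyond E2f1, the repressor E2f6 rose 2.34-fold (edgeR adjusted p = 3.31e-07) and E2f2 1.85-fold (0.00788), and E2f5 did not pass (0.19 ± 0.08, adjusted p = 0.0678). E2f8, named later, was below the filter, with 114 counts in OIR and 4 in normoxic libraries (ratio 28.4, 95% counting interval 10.8 to 106). Its groups overlapped, with 2 to 43 counts in the OIR libraries. The counting intervals of Cdkn2a and E2f8 come from summed counts and leave out the spread between libraries. Of 8 genes of the anaphase-promoting complex and its partners, Cdc16 rose 1.11-fold (adjusted p = 0.0493) and 7 did not pass, among them Ube2s (0.13 ± 0.09) and Cdc23 (0.07 ± 0.06). That share of higher genes is close to the share over all genes tested.

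Libraries did not stand alike. The second principal component split the normoxic group, with values of 12.5 to 15.2 for its replicates 1 to 3 and of -18.5 to -13.1 for its replicates 4 to 6. The third set OIR replicate 6 apart, at 23.4. The labels name no batch, so the comparison was repeated within replicates 1 to 3 and within replicates 4 to 6. Higher in OIR were 32 of the 44 genes within replicates 1 to 3 and 25 within 4 to 6, and lower were 1 and 2. Over all genes, in either direction, 7226 of 18550 tested passed within replicates 1 to 3 and 3671 of 18377 within 4 to 6. Fewer calls within 4 to 6 were thus found over the whole table. For mitosis the counts were 14 and 13 of 20, and for replication and nucleotide supply 11 and 7 of 14. The log2 fold change of Mki67 was 5.67 within replicates 1 to 3 and 3.07 within 4 to 6, that of Ccnd2 3.18 and 1.54, that of Ccnd1 1.97 and 0.88, and that of Aurkb 4.99 and 2.95. Traip fell by 1.502 within replicates 1 to 3 and by 1.079 within 4 to 6. Several genes had the larger estimate within 4 to 6, among them Mcm3 (1.93 and 2.06), Ube2c (2.20 and 2.48), Ccnb2 (0.92 and 1.59) and Cenpe (0.50 and 0.75). Mcm5, Gins2, Cdt1, Tyms, Cdk6 and Cenpf did not pass within replicates 4 to 6 (adjusted p = 0.109 to 0.415). Whether the folds differ between the sets was not tested.

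**Figure D5:**
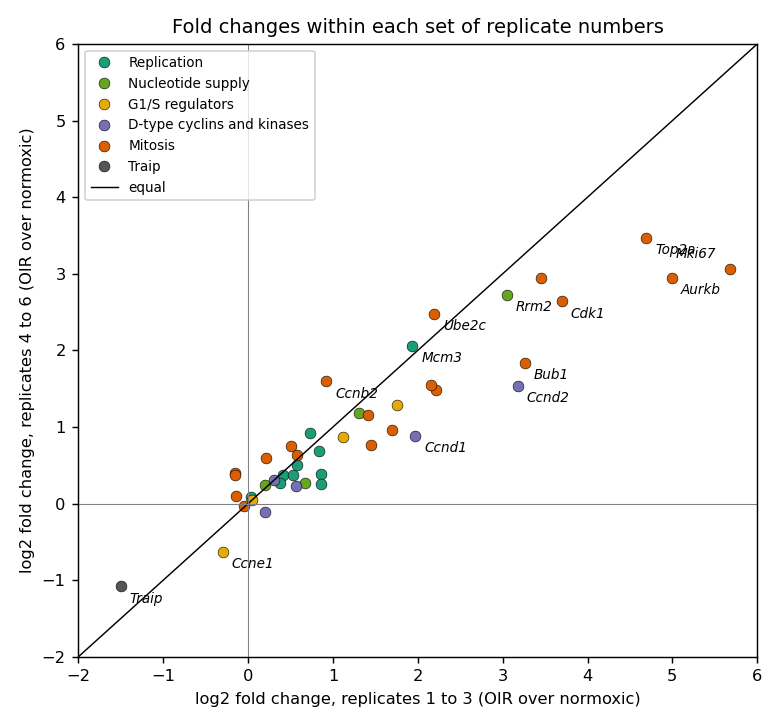
Log2 fold change, OIR over normoxic, within replicates 4 to 6 (vertical) against replicates 1 to 3 (horizontal) for the 44 genes, with a line of equal values. Mki67 (5.67 and 3.07), Aurkb, Ccnd2 and Ccnd1 lie below the line, Mcm3 and Ube2c near it, Ccnb2 above it, and Traip is negative in both sets.

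OIR replicate 6 was the lowest OIR library in 9 of the 20 mitosis genes and in 19 of the 44 genes, and OIR replicate 5 the highest in 9 and 17. Without OIR replicate 6, the counts were 32 higher and 2 lower of 44, as with it. That library also had the lowest summed level of endothelial markers in its group (486 CPM, where the OIR libraries reached 664 CPM), of microglial markers (169 CPM), of astrocyte markers (241 CPM) and of red cell genes (115 CPM). Its pericyte markers ranked 2 from the lowest (537 CPM). It held the highest OIR sums of Müller glia (3971 CPM), rod (47887 CPM) and lens (17.1 CPM) markers. Whether these go with its levels of the 44 genes was not tested.

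Most marker genes of cells that can divide were higher in OIR, where 16.2% of all genes tested were higher and 14.8% lower. Endothelial markers rose in 11 of 12 genes, with summed levels of 486 to 664 CPM in OIR and 281 to 354 CPM in normoxic libraries. Pericyte markers rose in 9 of 9 (475 to 701 CPM in OIR, 182 to 236 CPM in normoxic libraries, of which Rgs5 321 to 500 and 116 to 169 CPM). Microglial markers rose in 9 of 11 (169 to 229 and 75.8 to 89.3 CPM), and P2ry12 and Tmem119 did not pass (edgeR adjusted p = 0.0999 and 0.554). Astrocyte markers rose in 6 of 6 (241 to 405 and 49.9 to 70.3 CPM, of which Gfap 150.3 to 313 and 11.2 to 20.2 CPM). Red cell genes rose in 4 of 4 tested (115 to 236 CPM in OIR and 55.9 to 133 CPM in normoxic libraries). Of 9 tested genes that also mark retinal progenitors, 3 fell and Nes rose (720.1 to 785 CPM summed in OIR and 838 to 919.5 CPM in normoxic libraries), and the progenitor gene Fgf15 was near 0, with 19 counts in OIR and 13 in normoxic libraries. Müller glia markers rose in 1 and fell in 4 of 8 (3008 to 3971 and 3613 to 4165 CPM), and rod markers, which mark the tissue as retina, rose in 1 and fell in 1 of 8 (42703 to 47887 and 39345 to 44300 CPM). The rod counts are close to the shares over all genes tested. Lens genes fell in 5 of 9 tested (2.98 to 17.1 CPM in OIR and 9.54 to 54.3 CPM in normoxic libraries), and Lim2 was at 0 throughout. With the lens level as a covariate, 22 of the 44 genes were called higher, and 2706 genes passed in all, with 11 of the 34 calls lost (Birc5, Ccnb2, Ccne1, Cdk6, Cdt1, Gins2, Kif11, Mcm4, Mcm5, Rrm1 and Tyms). Since the lens level differed between the groups, this covariate is not independent of the comparison. Among the lost calls, the log2 fold change shrank in some (Mcm5, 0.45 to 0.24) and not in others (Cdt1, 0.54 to 0.57, and Rrm1, 0.22 to 0.27). The part of these cell types in the changes of the 44 genes was not tested.

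Gene models of the table that overlap each other were counted without a stated strand. Of the 44 genes, 12 overlap another tested gene, in each case on the opposite strand. They are 6 of the 10 that did not pass (Mcm7, Ccne2, Cdk4, Ccna2, Kif20a and Prc1) and 6 of the 34 that did (Gins2, Tk1, Cdk2, Ccnd1, Ccnd3 and Cdc20). Prc1 lies inside the model of Rccd1 over all of its 21810 bases, and Kif20a shares 2327 bases with Cdc23. On the shared bases, reads of such pairs cannot be told apart without strand, and the part of this in the 10 genes was not tested. Shared bases were taken over whole gene models, from start to end.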

How the data were processed

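Poly-A RNA of 12 retina libraries was sequenced, 6 from OIR and 6 from normoxic mice, with groups and replicate numbers read from the sample titles. Trimmomatic, HISAT2 (version 2.0.5), HTSeq and build GRCm39 are named without their roles, per the submitters' processing notes. No source used here gives the annotation release or the strand setting. The authors deposited whole-number counts per gene and FPKM (fragments per kilobase of transcript at a common depth) beside them, per the file headers. The gene length behind the FPKM was shorter than the length column for 52.9% of the genes with counts.

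From the counts, 18275 of 57073 gene models passed edgeR's filterByExpr (version 4.0.16, R 4.3.3; minimum count 10, minimum total 15) and were tested with TMM factors and the quasi-likelihood test, p-values adjusted over all of them (Benjamini-Hochberg, threshold 0.05). CPM are counts scaled by the library total and its TMM factor. SE of a log2 fold change is its size over the root of the F statistic. The members, the wider gene lists and the motifs were chosen with earlier results of these data known. Members named with their values by library were Mki67, Top2a, Traip and, in each class, the 3 with the smallest adjusted p, the highest and the lowest fold change. From each wider list the 3 genes with the smallest adjusted p were named; Clspn, Gmnn, Fen1, Ndc80, Knl1, Cdkn2b, Cdkn2a, E2f8, Pttg1, Racgap1 and the genes named for a filter limit were chosen after their values were seen. No number paired the libraries: deviations of same-numbered libraries correlated at -0.03 to 0.13. No library repeated another: their counts disagreed by 3.06 to 15.6 in chi-square over its degrees of freedom. On data simulated for OIR against normoxic with 18085 genes, 52% of 50 genes changed 1.5-fold, 88% at 2-fold and 98% at 4-fold were recovered, with 8 false calls. Alternatives were other scalings, filters, DESeq2 (version 1.42.0), limma (version 3.58.1) on FPKM, blocks, a lens covariate and leaving out libraries. Promoter sequences are RefSeq's for GRCm38.p6, another build than the table's, and were matched by symbol.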

Additional observations from a re-analysis of the deposited data

Results flagged for a closer look

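In each group of 6 libraries, the highest and the lowest CPM of every one of the 44 genes were set against their neighbours, and 7 of 88 groups held a library far from the others, where chance gives about 1 in 20. In OIR, Mki67 was low in replicate 6, at 2.21 CPM with the next library at 5.46 CPM. Mcm6 and Ccnb1 were high in OIR replicate 5, at 22.6 CPM (next 14.9 CPM) and 4.47 CPM (next 2.60 CPM). Bub1 was high in OIR replicate 3, at 2.94 CPM (next 2.08 CPM). Among normoxic libraries, Cdk1 was high in replicate 5, at 2.00 CPM (next 0.763 CPM), and Ccnb1 in replicate 6, at 0.654 CPM (next 0.278 CPM). Rrm2 was low in normoxic replicate 3, at 0.0572 CPM (next 0.325 CPM), which is 1 count.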

How the results depend on the processing

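Under all 12 alternatives and 12 omissions of a library, no call among the 44 genes changed direction. With each library left out in turn, 31 to 33 genes were higher and 2 lower, 11 to 12 of replication and nucleotide supply and 14 to 15 of mitosis were higher with 0 lower in either, 5073 to 5870 genes passed in all, and the mitosis median exceeded the replication median by 0.72 to 0.85 (0.75 with all libraries). When genes had to average 1 FPKM in either group, 29 of the 44 genes were tested, and 21 of them, 6 of mitosis, were higher. Of the 29, 28 kept their call and Aurka gained 1, so the lower counts came from genes no longer tested. Within replicates 4 to 6, 7 genes of replication and nucleotide supply were higher and 3671 genes passed in all; only 6 libraries enter that fit. With the lens covariate these were 6 and 2706, and 1 gene was lower; within replicates 1 to 3 also 1 gene was lower. On log2(FPKM + 1), the medians differed by 0.14. Beyond fewer genes or libraries tested, the cause was not tested. Replicate numbers paired no libraries (correlations of -0.03 to 0.13, with 2 of 6 numbers matching best with their own). With the replicate block, 32 genes were higher, 2 lower and 5675 passed in all. With the sets of replicates 1 to 3 and 4 to 6 as a block instead, 33 were higher, 15 of them of mitosis (Aurka added), 2 lower and 6429 passed in all. Depth limits the folds of Mki67, Rrm2, Aurkb, Ccnb1 and Bub1, with 36, 36, 17, 31 and 41 normoxic counts in all.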

Other observations

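Among the wider mitosis genes, 2 more stood apart, chosen after their values were seen. Pttg1, the securin gene that holds sister chromosomes together, fell by 1.14 on the log2 scale (edgeR adjusted p = 0.0153), with 13 counts in OIR replicate 1, 99 to 260 in the other OIR libraries and 238 to 308 in normoxic libraries. Racgap1, a gene of cytokinesis, rose 2.41-fold (edgeR adjusted p = 0.0017), with 959 counts in OIR replicate 6, 283 to 495 in the other OIR libraries and 128 to 263 in normoxic libraries.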
